A study of Homo sapiens with 28 samples.

Results

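The 48 genes described here act at the G2/M transition and in mitosis, from entry into mitosis to the division of the cell. They were chosen by name, matched by Ensembl gene identifier, and all 48 were found among the 22391 genes with an RPKM value (reads per kilobase of transcript, scaled to the size of the library). The choice was made with earlier results of these data known. Splicing values were given for 43 of them, in 342 of the 100814 splicing events of the series. Each event has a PSI (percent spliced in), the share of junction reads that support it within its local set of junctions.

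Cells enter mitosis when CDK1 binds cyclin A or cyclin B and is freed of inhibition by the CDC25 phosphatases. The kinases PLK1, AURKA and AURKB then drive spindle assembly, the spindle checkpoint holds the cell until every kinetochore is attached, and CDC20 with the anaphase-promoting complex ends the hold by marking securin and cyclin B for destruction. Transcripts of most of these genes are made in late S and G2 phase under the FOXM1, MYBL2 and MuvB factors and are low in cells that have stopped dividing, so in bulk RNA they are commonly read as a mark of proliferation. In bulk libraries such as these, fewer cells in G2 or mitosis and less RNA per such cell cannot be told apart.

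The 28 libraries came from MOLM13 and MV4;11, established human acute myeloid leukemia lines that carry the MLL-AF9 and MLL-AF4 fusions. Cells were transduced with pLKO.1 lentivirus bearing a hairpin against MBNL1, an RNA-binding splicing factor (shMBNL1-64 or shMBNL1-65, hereafter sh64 and sh65), or the non-targeting hairpin shNT, and all groups were selected in puromycin. In MOLM13 there were 3 sh64 and 3 shNT libraries after 72 h of puromycin (day 4 in the study's methods), 4 sh65 libraries, a second set of 3 shNT libraries, and 3 sh64 and 3 shNT libraries at day 12. In MV4;11 there were 3 libraries each of sh64, sh65 and shNT, and both hairpins were compared with the same shNT libraries. For sh65 in MOLM13 and for MV4;11 no sampling day was found in the labels or the methods. The cells are pools of transduced cells of 1 line each, and the labels do not say that the libraries of a group came from separate cultures, so p-values measure the spread between these libraries, which may be technical. The day 12 libraries, which the methods call biological triplicates, were run on another sequencer.

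MBNL1 itself, the targeted gene, was lower in each knockdown group, at 3.23 to 4.40 RPKM with sh64 and 12.0 to 12.7 RPKM with sh65, against 18.9 to 26.4 RPKM with shNT (group means). With sh65 in MOLM13 its difference did not pass the thresholds (log2 fold change -0.57 ± 0.20 SE, adjusted p = 0.21, limma). All 8 myeloid markers examined were expressed in at least 1 library, with a summed level of 1002 to 4257 RPKM. Among 10 markers of T cells, B cells, erythroid cells, fibroblasts and epithelium, CD3D (up to 12.2 RPKM), COL1A1 (2.76) and CD79A (1.33) reached 1 RPKM in any library, while CD3E stayed at or under 0.072 RPKM. Relative sequencing depth, read from the step between low RPKM values, ranged from 0.28 to 1.00. Both day 4 libraries numbered 3 were the shallowest of their group (0.33 with shNT and 0.28 with sh64). In the sh65 comparison and in MV4;11 the knockdown libraries were deeper than their controls, at 0.56 to 0.78 against 0.38 to 0.46 and at 0.55 to 0.67 against 0.41 to 0.52, and the part of depth in the results was not tested.

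In the control cells the 48 transcripts spanned about the same order of levels in both lines. CKS2, a small subunit that docks CDK1 to its substrates, had the highest mean in all 9 groups, at 161 RPKM in the first MOLM13 shNT set, 155 in the second, 107 at day 12 and 102 in MV4;11. Lowest were MKI67, the proliferation antigen Ki-67 (2.22 and 2.78 RPKM in the first and second MOLM13 sets), and the kinesin KIF18A (3.81 at day 12 and 1.38 in MV4;11). The median of the 48 gene means was 16.9, 22.8, 21.7 and 8.21 RPKM in these 4 shNT groups, so the middle of the set was lowest in MV4;11.

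**Figure D1:**
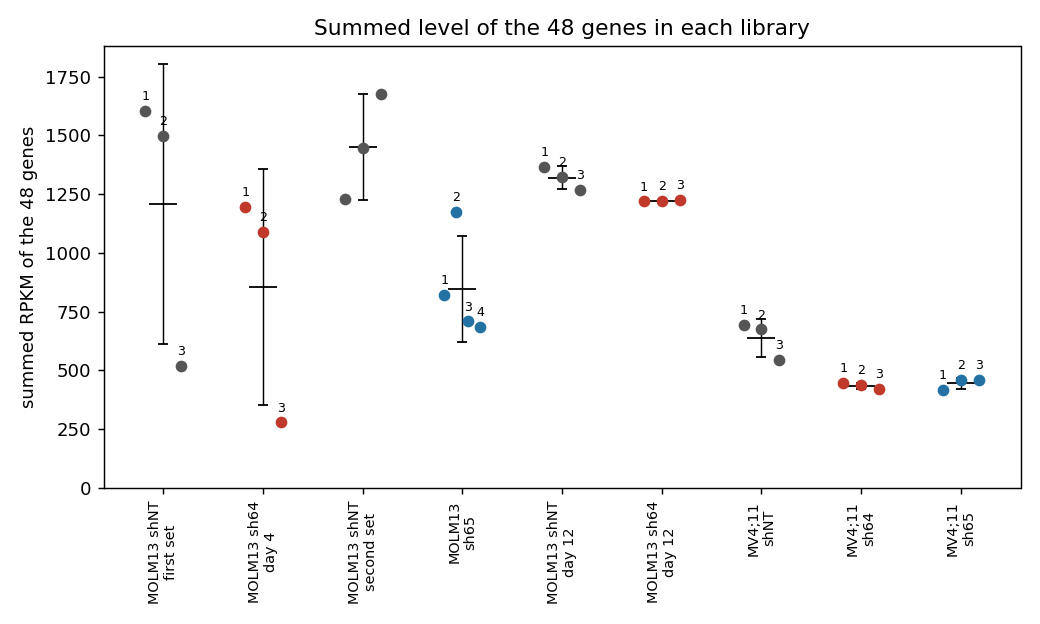
Summed RPKM of the 48 genes in each library (y axis) by group (x axis), with the replicate number beside each point where the labels give one; horizontal bars are group means and error bars are SD. The day 4 libraries numbered 3 lie at 521 (shNT) and 279 (sh64), far under the other libraries of their groups, and the MV4;11 knockdown libraries lie between 416 and 460, under all 3 of their controls.

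Added up over the 48 genes, RPKM was 1603, 1499 and 521 in the first MOLM13 shNT set and 1196, 1089 and 279 in the day 4 sh64 libraries numbered 1, 2 and 3. It was 1228, 1448 and 1678 in the second shNT set and 820, 1175, 709 and 686 with sh65. In MV4;11 it was 693, 675 and 546 with shNT, 446, 439 and 421 with sh64, and 416, 459 and 460 with sh65. At day 12 it was 1368, 1323 and 1269 with shNT and 1219, 1221 and 1227 with sh64. Every knockdown library lay under every control library of its comparison except at day 4, where each sh64 library lay under the shNT library of its own number.

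Between the lines, MV4;11 shNT cells held less of nearly all of these transcripts than MOLM13 shNT cells of the second set. A gene was called when limma gave p of 0.01 or less with a change of at least 1.5-fold, on log2(RPKM + 1). By this rule 44 of the 48 genes were lower and 0 higher in MV4;11, where 7.62% of the 10222 genes tested were lower and 6.61% higher, and 44 also passed an adjusted p of 0.05 (6.66% of all genes). The 4 that were not called were CENPE, CENPF, CKS2 and MKI67. The median log2 difference of the 48 genes was -1.18. UBE2C, which loads ubiquitin for the anaphase-promoting complex, stood at 9.24, 9.68 and 8.47 RPKM in MV4;11 and 36.2, 36.9 and 42.4 in MOLM13, the largest difference of the set (log2 difference -1.96 ± 0.17 SE, adjusted p = 0.00024). NUF2 (-1.94 ± 0.20), AURKB (-1.83 ± 0.19) and CDC20 (-1.72 ± 0.21) came next. For each of these 4 genes the ranges of the 2 lines were far apart. Set against the first MOLM13 shNT set, which holds the shallow library numbered 3, 6 genes were called lower (median -0.76), and against the day 12 set 43 were (median -1.26). The share of all genes called against these control sets is not given, so a change in calls over all genes cannot be told apart. The line, the medium and the experiment cannot be told apart in this comparison.

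At day 4 in MOLM13, no gene of the set was called with sh64 when the libraries were taken as unpaired groups (0 lower and 0 higher, against 1.09% of the 10289 genes tested called lower and 1.33% higher; 0 genes of the set had an unadjusted p under 0.05, limma). The estimates nevertheless lay on one side, with 47 of 48 below 0 (50.2% of all genes tested). Their median log2 fold change was -0.60, beside -0.00 over all genes tested. The 3 genes with the smallest p were KIF18A (-0.66 ± 0.34 SE, adjusted p = 0.60), CDC25B and BUB3. KIF18A stood at 4.41, 3.62 and 1.52 RPKM in shNT libraries 1, 2 and 3 and at 2.22, 1.59 and 0.924 in sh64 libraries 1, 2 and 3. CDC25B stood at 21.1, 24.1 and 14.9 against 15.2, 17.1 and 11.08, and BUB3 at 84.7, 77.2 and 54.8 against 64.3, 59.2 and 34.2. All 3 genes overlapped between the groups through shNT library 3. The libraries numbered 3 held the lowest value of their group for 48 of 48 genes, in both the shNT and the sh64 group, and the mean of shNT libraries 1 and 2 was 3.69 times that of library 3 in the median gene. Same-numbered libraries of the 2 groups deviated together across all genes (correlations of 0.86, 0.81 and 0.89), so the number was also used as a block. Libraries 1 and 2 also correlated across numbers (0.75 and 0.67), while crosses with library 3 lay between -0.87 and -0.79. The correlations thus set library 3 apart and do not decide how libraries 1 and 2 pair. With the block 22 genes of the set were called lower and 0 higher, against 3.28% of all genes lower and 3.81% higher, and 34 passed an adjusted p of 0.05 (14.1% of all genes). Leaving out both libraries numbered 3 gave 9 genes called lower without the block and 10 with it (3.02% and 3.13% of all genes) and 0 called higher (4.57% and 4.64%), and a median of -0.43. In all 3 pairs 43 of the 48 genes were lower with sh64, with median differences of -0.40, -0.45 and -0.87 for pairs 1, 2 and 3. The share of all genes lower in all 3 pairs is not given here, so this count describes the set alone. Of the myeloid markers examined, LYZ was higher with sh64 (log2 fold change 1.53) and FLT3, the receptor of an early progenitor ligand, lower (-1.08). Their part in the result was not tested, and the other markers are not described for this comparison.

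The values behind those calls were as follows. CDK1, the kinase that starts mitosis, stood at 34.1, 26.8 and 6.43 RPKM in shNT libraries 1, 2 and 3 and at 19.2, 13.8 and 2.65 in the sh64 libraries of the same numbers. It was lower in each pair, although the groups overlapped because library 3 was low in both (log2 fold change -0.91 ± 0.08 SE with the block, adjusted p = 0.0066, and ± 0.84 without it). PRC1, which bundles microtubules between the separating chromosomes, stood at 22.9, 24.1 and 8.02 against 13.5, 13.8 and 3.17 (-0.87 ± 0.10, adjusted p = 0.0092). CCNB1, cyclin B1, stood at 86.2, 79.5 and 21.7 against 54.7, 46.0 and 10.09 (-0.82 ± 0.10, adjusted p = 0.0092). MAD2L1, the checkpoint protein that holds CDC20, stood at 43.1, 34.3 and 9.06 against 25.9, 22.6 and 3.55 (-0.81 ± 0.12, adjusted p = 0.014). All of them were lower in each pair, on top of the low library 3, and by more in pair 3 than in the other two pairs. INCENP, TACC3, ESPL1, ECT2 and MKI67 stood apart from the rest, with blocked estimates between -0.20 and 0.14 that did not pass the test.

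With sh65 in MOLM13, 30 of the 48 genes were called lower and 0 higher, against 1.48% of the 10156 genes tested called lower and 1.76% higher. None of the 30 passed an adjusted p of 0.05 (0.00985% of all genes did, in the lower direction). The median log2 fold change of the set was -0.76, beside 0.05 over all genes. In 26 genes every sh65 library lay under every shNT library, where 5.75% of all genes did so. UBE2C stood at 18.6, 27.3, 10.51 and 9.63 RPKM in sh65 libraries 1 to 4 and at 36.2, 36.9 and 42.4 with shNT. The groups did not overlap, and library 2 was the nearest to the controls (-1.29 ± 0.32 SE, adjusted p = 0.15). PLK1, a kinase of mitotic entry and spindle assembly, stood at 23.9, 35.3, 12.7 and 11.5 against 39.1, 43.2 and 60.8 (-1.27 ± 0.37, adjusted p = 0.17). NUF2, a microtubule-binding subunit of the kinetochore, stood at 12.4, 20.9, 7.82 and 6.56 against 24.1, 23.3 and 30.6 (-1.18 ± 0.34, adjusted p = 0.17). BIRC5, the survivin subunit of the chromosomal passenger complex, stood at 5.63, 8.71, 4.49 and 4.14 against 10.7, 13.9 and 14.6 (-1.10 ± 0.23, adjusted p = 0.14). In all of these genes library 2 was the highest of the sh65 group and library 4 the lowest. The count of calls depended on single libraries: leaving out sh65 library 2 gave 38, leaving out library 1, 3 or 4 gave 13, 10 or 11, and leaving out the shNT library of middle or highest summed level gave 9 or 6. No share of all genes is given beside these counts, so a change in calls over all genes cannot be told apart.

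In MV4;11 with sh64, 17 of the 48 genes were called lower and 0 higher, against 2.62% of the 10177 genes tested called lower and 3.89% higher. By an adjusted p of 0.05, 16 were lower (3.83% of all genes) and 0 higher (3.97%). The median log2 fold change was -0.53, and 38 genes had every sh64 library under every shNT library, where 17.5% of all genes did. CDK1 stood at 5.73, 5.28 and 5.77 RPKM with sh64 and 13.5, 11.9 and 8.64 with shNT. The sh64 libraries were within 1 RPKM of each other and the controls were spread, with shNT library 3 the lowest (-0.88 ± 0.16 SE, adjusted p = 0.025). CCNA2, cyclin A2, stood at 8.10, 6.72 and 6.88 against 14.9, 16.4 and 10.095 (-0.82 ± 0.17, adjusted p = 0.034). SPC25, a kinetochore subunit of the NDC80 complex, stood at 2.88, 2.56 and 1.47 against 5.38, 5.08 and 3.34 (-0.77 ± 0.21, adjusted p = 0.059). TOP2A, the topoisomerase that untangles sister chromatids, stood at 22.4, 22.5 and 23.0 against 53.9, 40.1 and 26.9 (-0.75 ± 0.22, adjusted p = 0.068). None of these 4 genes overlapped between the groups, and the last 2 passed the unadjusted rule alone. Without shNT library 3 the count of calls was 31 and the median -0.66, while the count was 6 and 8 without shNT libraries 1 and 2 and 11 and 10 without sh64 libraries 1 and 3. These counts also stand without a share of all genes. CD3D, a T-cell marker (1.03), and the myeloid markers MPO (0.99) and CSF1R (0.87) were higher with sh64 on the log2 scale. Their part in the result was not tested, and the other markers are not described here.

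With sh65 in MV4;11, against the same 3 controls, 14 genes were called lower and 0 higher (1.85% of the 10197 genes tested were called lower and 1.78% higher). By an adjusted p of 0.05, 6 were lower (1.11% of all genes) and 0 higher (0.794%). The median log2 fold change was -0.43, and in 34 genes every sh65 library lay under every control, where 9.89% of all genes did. NUF2 stood at 1.96, 2.72 and 2.69 RPKM with sh65 and 7.10, 6.45 and 4.62 with shNT (-1.02 ± 0.17 SE, adjusted p = 0.036). PBK, a mitotic kinase, stood at 3.50, 4.06 and 4.42 against 11.2, 8.94 and 6.43 (-0.96 ± 0.18, adjusted p = 0.048). SPC25 stood at 1.62, 2.02 and 2.00 against 5.38, 5.08 and 3.34 (-0.94 ± 0.16, adjusted p = 0.040). In each of these the highest sh65 library stayed under the lowest control. TOP2A, at 16.4, 22.03 and 21.9 against 53.9, 40.1 and 26.9, fell by 0.92 on the log2 scale without passing the adjustment (adjusted p = 0.091). Leaving out shNT library 3 gave 22 calls, leaving out shNT library 1 or 2 gave 8 or 7, and leaving out sh65 library 1 or 2 gave 8 or 9. Here too no share of all genes is given. CD3D was also higher with sh65 (log2 fold change 1.52) and LYZ, lysozyme, lower (-1.74). Their part was not tested, and the other markers are not described here.

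**Figure D2:**
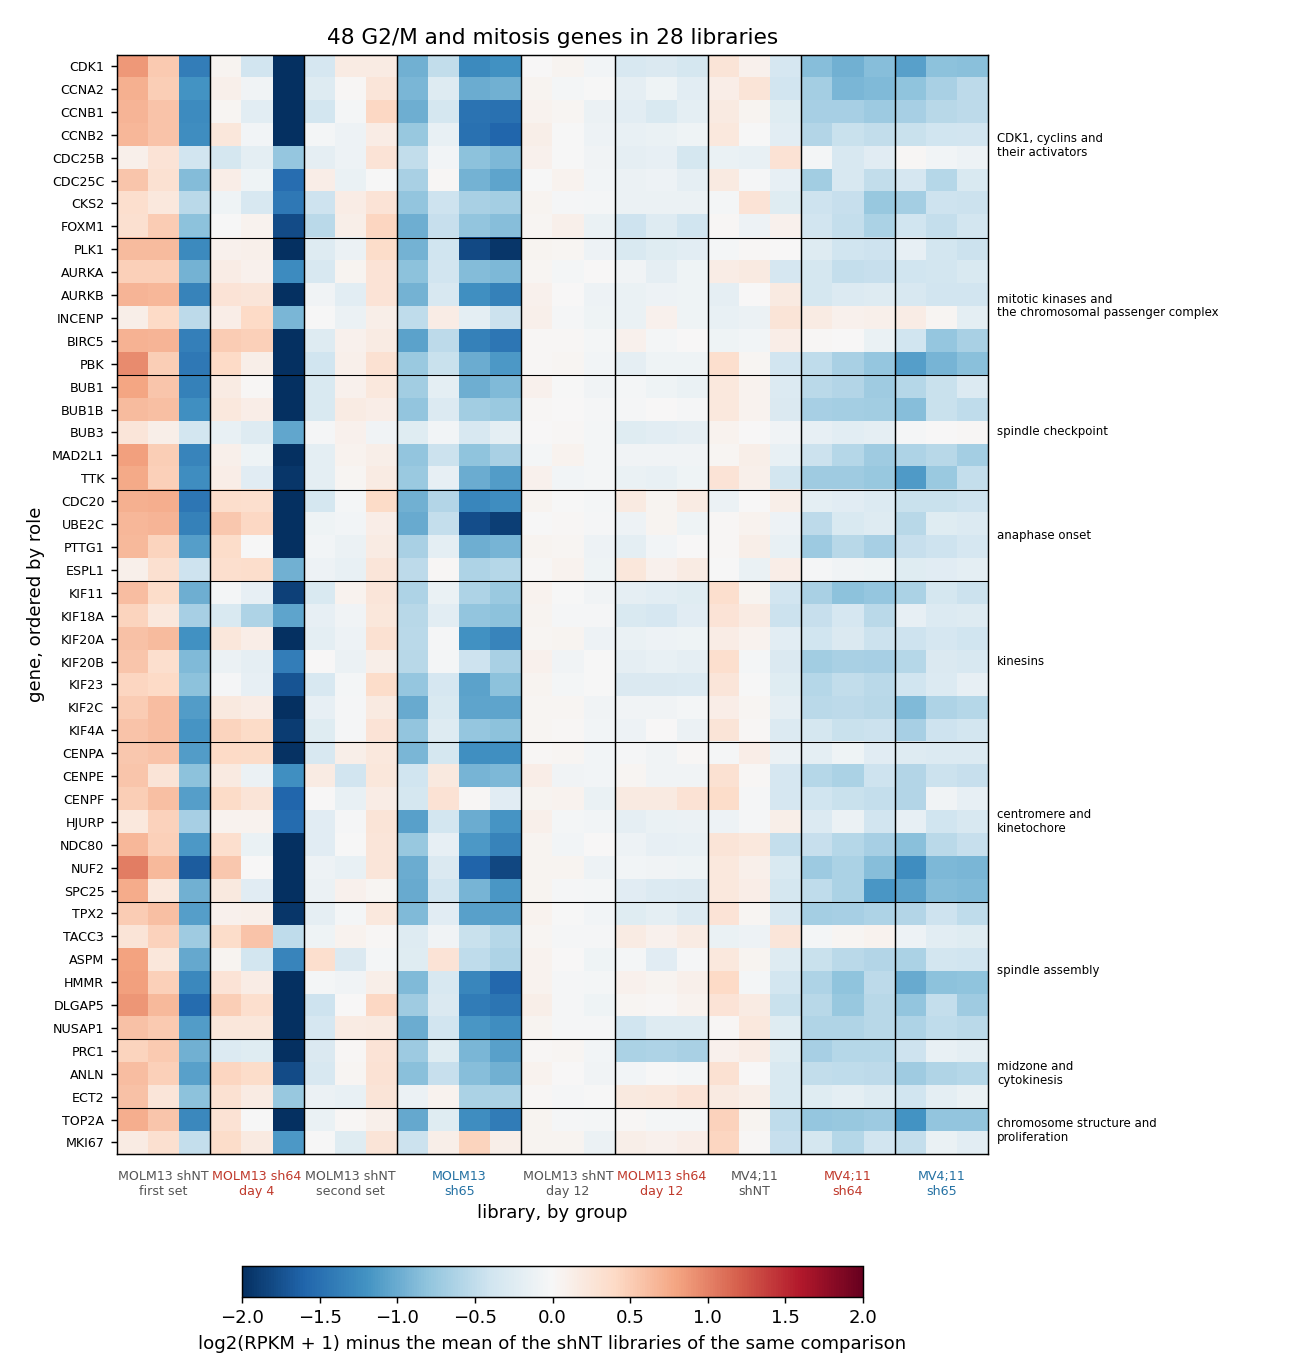
Heat map of the 48 genes (rows, grouped by role) in every library (columns, by comparison), coloured by log2(RPKM + 1) minus the mean of the shNT libraries of the same comparison. Knockdown columns are mostly below 0, by less at day 12, and the day 4 columns numbered 3 are low in both shNT and sh64.

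At day 12 the set as a whole lay closer to its controls. By the 1.5-fold rule 1 of the 48 genes, PRC1, was called lower and 0 higher, against 2.25% of the 10094 genes tested called lower and 3.27% higher. By adjusted p alone 19 were lower and 3 higher (19.3% and 30.4% of all genes), and the median log2 fold change was -0.11. Every sh64 library lay under every control in 23 genes (23.7% of all genes) and above every control in 6 (35.8% of all genes). PRC1 stood at 12.7, 12.9 and 12.5 RPKM with sh64 and 20.6, 20.7 and 19.5 with shNT. Replicates lay within about 1 RPKM of each other in both groups, and the groups were far apart (-0.63 ± 0.04 SE, adjusted p = 2.6e-05). ECT2, which acts in cytokinesis, rose from 9.95, 9.68 and 9.79 to 11.3, 11.6 and 12.0 RPKM (0.22 ± 0.04, adjusted p = 0.0028). CENPF, a kinetochore protein, rose from 7.96, 8.05 and 6.79 to 8.68, 8.68 and 9.43 (0.21 ± 0.07, adjusted p = 0.030). TACC3, which stabilises spindle fibres, rose from 49.7, 47.4 and 47.4 to 53.8, 51.3 and 54.3 (0.14 ± 0.04, adjusted p = 0.029). Each of these 3 rises was under 1.5-fold, with no overlap between the groups. The myeloid markers LYZ (2.24) and MPO (3.22) were higher and FLT3 (-0.80) lower on the log2 scale. Their part in the result was not tested, and the other markers are not described here.

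**Figure D3:**
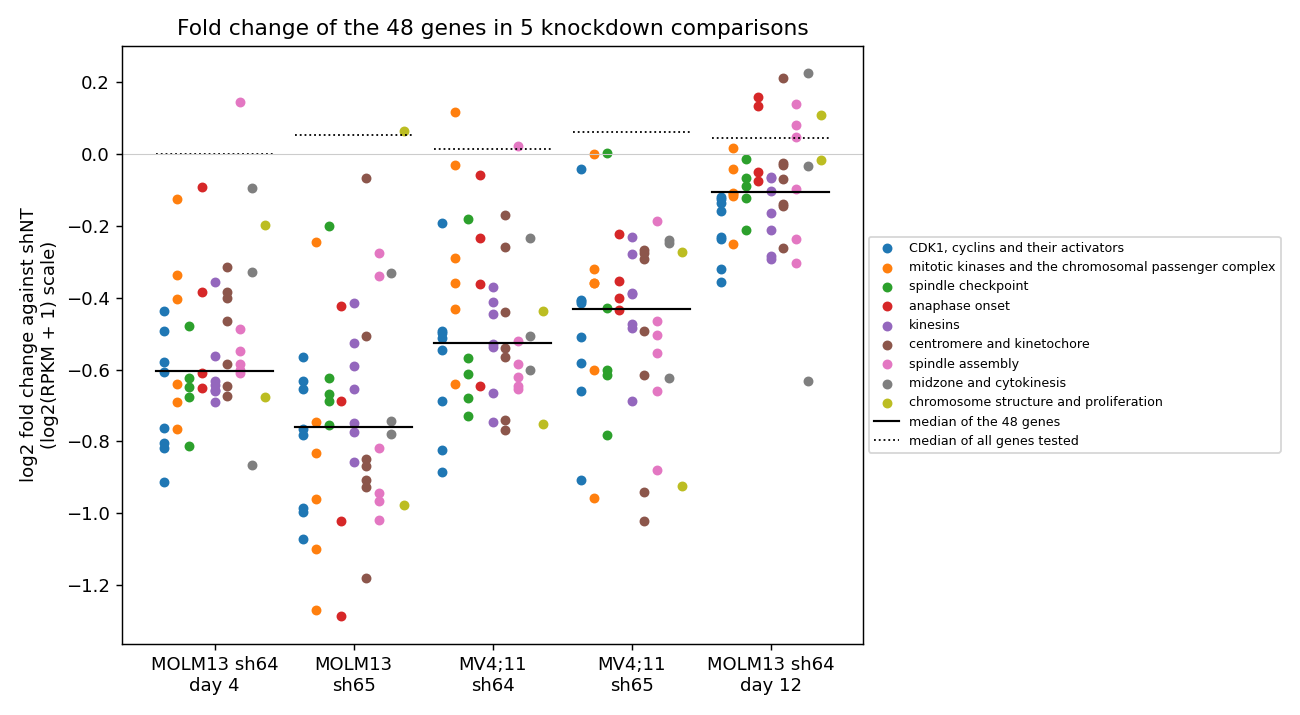
Log2 fold change of each of the 48 genes (points, coloured by role) in each knockdown comparison (x axis); solid lines are the median of the 48 genes and dotted lines the median of all genes tested. The medians of the set were -0.60 at day 4, -0.76 with sh65 in MOLM13, -0.53 and -0.43 with sh64 and sh65 in MV4;11, and -0.11 at day 12.

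The difference between day 12 and day 4 was tested as an interaction. Without the block 0 genes were called (0.18% of the 10583 genes tested were called lower and 0.217% higher, and by adjusted p 0.00945% and 0.0283%, and 0 genes of the set had an unadjusted p under 0.05, limma). Of the 48 estimates 47 were nevertheless above 0, with a median of 0.44. Over all genes tested, 41.4% of estimates were below 0 and the median was 0.04. With the number as a block 7 genes were called higher at day 12 relative to day 4 and 0 lower, against 0.803% and 0.737% of all genes, and 5 passed an adjusted p of 0.05 (1.29%). The 7 were CDK1 (0.59 ± 0.08 SE, adjusted p = 0.030, and ± 0.92 without the block), BUB1B, CCNA2, TOP2A, HMMR, MAD2L1 and CDC20. The numbers did not pair the day 12 libraries, however (correlations of -0.11, -0.05 and -0.06). Leaving out both day 4 libraries numbered 3 gave 0 calls by the 1.5-fold rule (1.4% of all genes lower and 0.712% higher) and 9 higher by adjusted p (2.84% of all genes, and 2.85% lower), with a median of 0.32. Leaving out sh64 library 3 of day 4 alone, which unbalances the pairs, turned the median to -0.21. The days were separate experiments on different sequencers, so day, experiment and sequencer cannot be told apart.

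Between the 2 hairpins in MV4;11, 0 of the 46 genes tested were called (1.83% and 1.55% of the 10227 genes tested were called lower and higher), and by adjusted p 4 were lower and 3 higher with sh64 (14.6% and 9.44% of all genes). BIRC5 stood at 3.73, 3.69 and 3.25 RPKM with sh64 and 2.54, 1.72 and 1.98 with sh65, with shNT at 3.40, 3.45 and 4.12. It was therefore within the control range with sh64 in 2 of 3 libraries and under it with sh65 in 3 of 3 (log2 difference 0.57 ± 0.10 SE, adjusted p = 0.0056). PBK (0.32, adjusted p = 0.040) and CDC20 (0.20, adjusted p = 0.044) were also higher with sh64. PRC1 stood at 5.17, 5.61 and 5.59 with sh64 and 6.38, 7.88 and 7.54 with sh65, lower with sh64 in 3 of 3 libraries (-0.35 ± 0.08, adjusted p = 0.018). PTTG1, securin (-0.24), and the kinesins KIF20B (-0.28) and KIF23 (-0.25) differed in the same direction, with adjusted p of 0.039 to 0.046.

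The hairpins could not be separated in MOLM13, where the interaction called 0 genes of 48 (1.42% of the 10578 genes tested were called lower and 0.7% higher; 0 genes of the set had an unadjusted p under 0.05, limma). The smallest p belonged to TACC3 (0.48 ± 0.43), UBE2C (0.90 ± 0.95) and BUB3 (-0.28 ± 0.30). The response to sh64 in MV4;11 against MOLM13 at day 4 also gave 0 calls (0.345% of the 10714 genes tested were called lower and 0.308% higher), with the smallest p for BUB3 (0.30 ± 0.32), CDC25B (0.25 ± 0.30) and INCENP (0.24 ± 0.45). With these standard errors, all without the block, differences as large as the day 4 estimates of the same genes would not have passed the test. With the block the errors of the second comparison were smaller (BUB3 0.30 ± 0.14, CDK1 0.03 ± 0.18, CCNB1 0.13 ± 0.16). It again gave 0 calls in the set, against 122 of the 10714 genes tested called lower and 139 higher. The numbers did not pair the MV4;11 libraries, however.

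Taken by role, the 8 genes of CDK1, its cyclins and activators held 5 calls lower with sh65 in MOLM13, 3 with sh64 and 2 with sh65 in MV4;11, and 7 in the comparison of the lines. CDK1 stood at 25.1, 35.9 and 35.8 RPKM in the second MOLM13 shNT set and 15.8, 22.2, 12.6 and 13.2 with sh65, and at 29.2, 30.1 and 27.9 with shNT and 23.0, 23.7 and 22.6 with sh64 at day 12. It was lower in every knockdown library than in every control in both (-0.98 ± 0.22 SE, adjusted p = 0.14, and -0.32 ± 0.04, adjusted p = 0.00075). CCNB1 stood at 58.0, 73.2 and 101 with shNT and 37.9, 58.9, 26.6 and 26.1 with sh65 in MOLM13. There sh65 library 2 lay above the lowest control. In MV4;11 CCNB1 was at 45.4, 41.9 and 34.0 with shNT, 25.1, 24.9 and 23.8 with sh64 and 25.0, 27.0 and 27.6 with sh65, and the hairpin libraries were all under the controls. FOXM1, the factor that switches on many genes of the set, stood at 5.93, 9.91 and 12.5 RPKM with shNT and 4.13, 6.35, 4.86 and 4.59 with sh65 in MOLM13, and in MV4;11 at 2.70, 2.38 and 2.85 with shNT, 1.81, 1.61 and 1.36 with sh64 and 1.77, 1.62 and 1.81 with sh65. Its groups overlapped in MOLM13 and did not in MV4;11, where the changes were -0.49 ± 0.11 (adjusted p = 0.040) and -0.41 ± 0.10 (adjusted p = 0.083). At day 12 FOXM1 was at 6.29, 7.12 and 6.39 with sh64 and 8.99, 9.39 and 7.86 with shNT (-0.36 ± 0.07, adjusted p = 0.0039). The phosphatases CDC25B and CDC25C, which free CDK1 of its inhibition, were called in none of the 5 knockdown comparisons, and in MV4;11 their estimates were -0.50 ± 0.14 and -0.41 ± 0.13 for CDC25C and -0.19 ± 0.15 and -0.04 ± 0.14 for CDC25B, with sh64 and sh65.

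Of the 6 kinases and passenger complex subunits 5 were called lower with sh65 in MOLM13, 1 with sh64 and 2 with sh65 in MV4;11, and all 6 between the lines. PLK1 stood at 49.9, 50.2 and 12.6 RPKM with shNT and 33.9, 34.2 and 4.88 with sh64 at day 4, and at 39.0, 38.5 and 34.7 with shNT and 30.2, 31.5 and 32.2 with sh64 at day 12. In MV4;11 it was at 13.7, 14.4 and 14.1 with shNT, 11.6, 10.45 and 10.3 with sh64 and 12.4, 10.7 and 10.2 with sh65. Those groups did not overlap but the change was small (-0.36 ± 0.10 and -0.32 ± 0.11). AURKA, the centrosome kinase, stood at 24.8, 24.7 and 8.62 with shNT and 19.6, 18.7 and 6.73 with sh64 at day 4, and at 21.4, 28.1 and 33.0 with shNT and 14.9, 20.6, 14.4 and 14.04 with sh65. At day 12 AURKA was at 21.8, 20.7 and 21.4 with shNT and 20.3, 18.6 and 19.97 with sh64, and in MV4;11 at 17.0, 17.4 and 11.9, against 11.7, 10.6 and 10.8 with sh64 and 11.3, 11.6 and 12.08 with sh65. It passed the call with sh65 in MOLM13 alone (-0.74 ± 0.19). INCENP, the scaffold of the passenger complex, was the exception of this role. Its estimates ran from -0.25 to 0.12 in the 5 knockdown comparisons without a call, although it was lower in MV4;11 than in MOLM13 (-1.14 ± 0.18, adjusted p = 0.0048).

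All 5 spindle checkpoint genes were lower in MV4;11 than in MOLM13, and 3 of 5 were called with sh65 in MOLM13, with sh64 in MV4;11 and with sh65 in MV4;11. BUB1, a kinase of the checkpoint, stood at 35.6, 30.2 and 7.33 RPKM with shNT and 22.6, 20.4 and 3.87 with sh64 at day 4, and at 22.4, 29.6 and 32.4 with shNT and 16.9, 24.0, 13.7 and 14.7 with sh65. In MV4;11 BUB1 was at 14.02, 12.7 and 9.82 with shNT, 7.98, 7.73 and 6.94 with sh64 and 7.77, 8.61 and 9.80 with sh65, and at day 12 at 25.96, 24.5 and 23.2 with shNT and 23.8, 23.0 and 22.2 with sh64. The day 12 groups overlapped and the others in MV4;11 did not. MAD2L1 stood at 29.3, 35.5 and 36.6 with shNT and 19.1, 24.8, 18.9 and 21.1 with sh65 in MOLM13 (-0.67 ± 0.14, adjusted p = 0.14). In MV4;11 MAD2L1 was at 13.7, 14.6 and 11.9 with shNT, 9.69, 8.65 and 7.78 with sh64 and 8.40, 8.71 and 7.99 with sh65, and at day 12 it was at 36.3, 39.2 and 36.0 against 35.5, 35.3 and 35.5. It was thus clearly lower in MV4;11 with either hairpin (adjusted p = 0.036 and 0.043) and within 0.07 of its control on the log2 scale at day 12. BUB3, the checkpoint adaptor, moved least of the 5 with sh65 in MOLM13 and with sh64 and sh65 in MV4;11, with estimates of -0.20, -0.18 and 0.00. At day 12 it moved most of the 5 (-0.21 ± 0.04 SE, adjusted p = 0.0037, limma).

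The 4 genes of anaphase onset (CDC20, UBE2C, PTTG1 and ESPL1) were all lower in MV4;11 than in MOLM13, and 3, 1 and 0 were called with sh65 in MOLM13, sh64 in MV4;11 and sh65 in MV4;11. ESPL1, the separase protease, was the one not called with sh65 in MOLM13 (-0.42 ± 0.19). PTTG1 was the one called with sh64 in MV4;11, at 16.9, 19.1 and 17.7 RPKM against 29.1, 31.1 and 25.7 (-0.64 ± 0.11, adjusted p = 0.025). CDC20 stood at 74.9, 69.2 and 74.3 with sh64 and 68.7, 65.6 and 64.7 with shNT at day 12, above every control, with an adjusted p of 0.050. Among the 7 kinesins, which move chromosomes and slide or trim spindle microtubules, 4, 2 and 1 were called in the same comparisons and 7 between the lines. KIF2C, a microtubule depolymerase at the centromere, was the one called with sh65 in MV4;11, at 9.04, 11.0 and 11.4 against 19.2, 18.0 and 15.3 (-0.69 ± 0.13, adjusted p = 0.047). KIF11 and KIF20B were the 2 called with sh64 in MV4;11 (-0.75 ± 0.18 and -0.67 ± 0.16).

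Of the 7 centromere and kinetochore genes 4, 2 and 2 were called lower in those comparisons and 5 between the lines. NUF2 and SPC25 made up the 2 calls in both MV4;11 comparisons, while CENPA, the centromere histone, and HJURP, its chaperone, were called in MOLM13 with sh65 (-0.93 ± 0.24 and -0.91 ± 0.21) and not in MV4;11 (-0.17 ± 0.11 and -0.26 ± 0.12 with sh64). Of the 6 spindle assembly genes 3, 3 and 2 were called, among them HMMR, a spindle pole protein, in both MV4;11 comparisons (-0.65 ± 0.19 and -0.88 ± 0.19). TACC3 was not called in any of them. Of the 3 midzone and cytokinesis genes 2, 1 and 1 were called. PRC1 was called with sh65 in MOLM13 and with sh64 in MV4;11, and ANLN, which anchors the contractile ring, with either sh65 (-0.78 ± 0.18 and -0.62 ± 0.16).

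TOP2A and MKI67 are both read clinically as proliferation markers, and no test compared one with the other. TOP2A stood at 87.6, 77.1 and 20.9 RPKM with shNT and 63.9, 52.2 and 9.75 with sh64 at day 4, at 80.4, 90.1 and 95.2 with shNT and 42.7, 74.9, 36.9 and 32.9 with sh65, and at 93.6, 87.9 and 87.4 with shNT and 90.6, 87.6 and 87.2 with sh64 at day 12. It was called lower with sh65 in both lines and with sh64 in MV4;11, and at day 12 its groups overlapped. MKI67 stood at 2.51, 2.91 and 1.25 with shNT and 3.03, 2.57 and 0.415 with sh64 at day 4, and at 2.72, 2.17 and 3.46 with shNT and 1.78, 3.05, 4.101 and 3.08 with sh65. In MV4;11 MKI67 was at 3.39, 2.31 and 1.36 with shNT, 1.55, 1.18 and 1.48 with sh64 and 1.34, 1.97 and 1.80 with sh65, and at day 12 at 4.15, 4.19 and 3.61 with shNT and 4.39, 4.28 and 4.44 with sh64. MKI67 was low, where adding 1 RPKM shrinks a log2 fold change. It was called in none of the comparisons, and its groups overlapped in all of them but day 12.

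**Figure D4:**
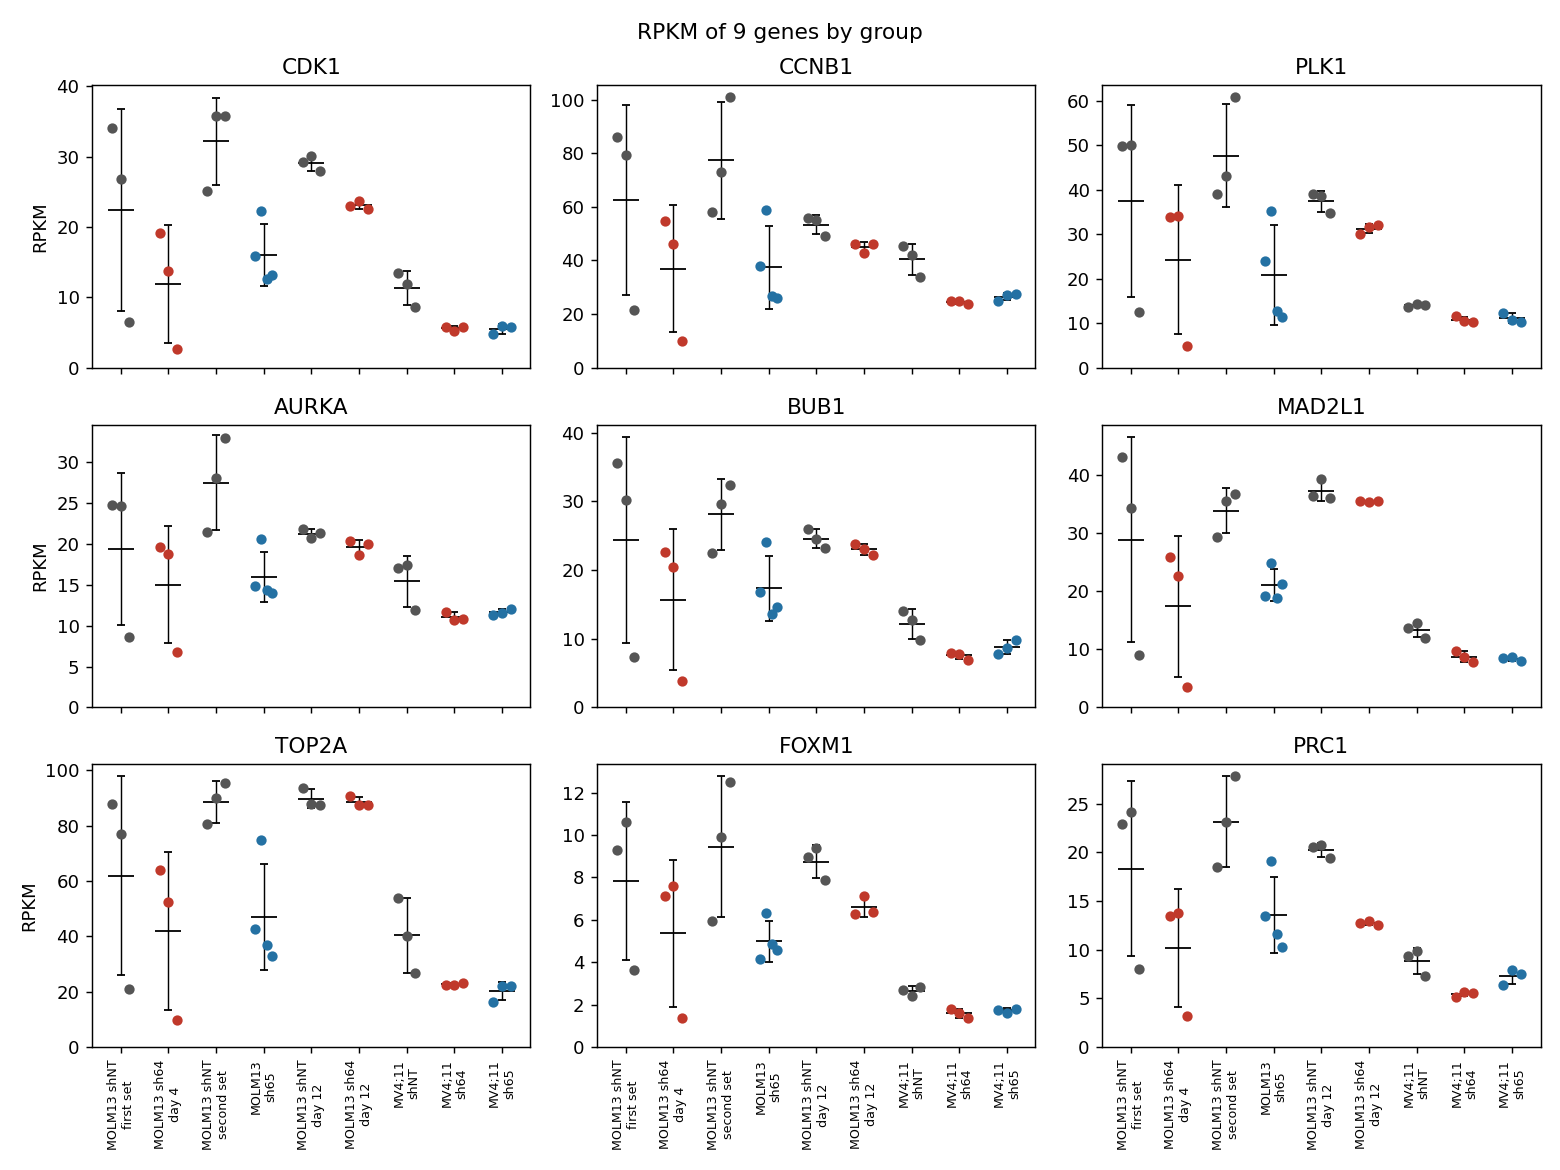
RPKM of 9 genes of the set (panels) in every library by group; grey points are shNT, red sh64 and blue sh65 libraries, horizontal bars are means and error bars are SD. The day 12 sh64 libraries of PRC1, at 12.5 to 12.9, lie under their controls, at 19.5 to 20.7.

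Other genes of the cycle were counted from lists fixed with this set. Like the set, they were chosen with earlier results of these data known, so the counts are a description. Of 58 further mitotic genes (57 tested in MOLM13 and 55 in MV4;11) 18 were called lower with sh65 in MOLM13, 11 with sh64 and 10 with sh65 in MV4;11, 3 at day 12 and 0 at day 4 (10 with the block). The cohesin subunit SMC1A had the smallest p with sh64 in MV4;11 (-0.98 ± 0.11, adjusted p = 0.0076) and at day 12 (-0.73 ± 0.04, adjusted p = 9.4e-06). Of the DNA replication and G1/S genes, 1 of 53 was called lower with sh65 in MOLM13, 19 of 51 with sh64 and 24 of 53 with sh65 in MV4;11, 1 of 54 at day 12 and 0 of 53 at day 4 (16 with the block). In MV4;11 these included CDC6, which loads the replicative helicase (-1.34), the helicase subunit MCM3 (-0.86) and cyclin E2 (CCNE2, -1.20) with sh64, and TYMS, thymidylate synthase (-1.08), and CCNE2 (-1.24) with sh65. Their medians were -0.46, -0.50, -0.50, -0.56 and -0.13 at day 4, with sh65 in MOLM13, with sh64 and sh65 in MV4;11 and at day 12. Among 23 DREAM, MuvB and G2 regulators, of which 20 or 21 were tested, 2 were called lower with sh65 in MOLM13 (LIN9 and CHEK1), 1 lower and 1 higher with sh64 in MV4;11, and 2 lower with sh65 in MV4;11 (MYBL2 and CHEK1). Of 17 APC/C subunits and regulators 1 was called lower in each of these 3 comparisons. Of all genes tested, 1.48% were called lower with sh65 in MOLM13, 2.62% with sh64 and 1.85% with sh65 in MV4;11, 2.25% at day 12 and 1.09% at day 4 (3.28% with the block), so a list with 1 called gene was not set apart from all genes. The medians of the last 2 lists lay between -0.24 and 0.04 in the 5 knockdown comparisons.

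The promoters of the set share letters that the choice of genes did not use. RefSeq promoter windows of 300 bases (250 before and 50 after the start, GRCh38.p14) were matched for 40 of the 48 genes and searched on both strands. TTTGAA, a form of the cell-cycle homology region bound by MuvB, was present in 30 of 40 genes (75% against 18.2% of 27305 genes), TTTAAA in 14 (35% against 14.5%) and CCAAT, the NF-Y box, in 33 (82.5% against 39.7%). In 29 genes a single window held both CCAAT and 1 of the first 2 (72.5% against 11.2%). A match is a description of letters, not a bound site. AURKB, BUB1, CCNA2 and TACC3 held neither TTTGAA nor TTTAAA in these windows. The 100 bases before the start are shown for 4 genes with large or distinct changes, 5′ to 3′ on the gene's strand, with the searched letters in capitals: PRC1 (chr15:90994536-90994635, minus strand), CCNB1 (chr5:69167050-69167149, plus), PLK1 (chr16:23678789-23678888, plus) and CDC20 (chr1:43358881-43358980, plus).
PRC1: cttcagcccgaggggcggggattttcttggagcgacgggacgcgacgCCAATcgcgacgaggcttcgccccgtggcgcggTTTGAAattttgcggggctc
CCNB1: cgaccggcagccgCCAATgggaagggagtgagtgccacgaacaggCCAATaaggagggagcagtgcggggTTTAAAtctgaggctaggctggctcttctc
PLK1: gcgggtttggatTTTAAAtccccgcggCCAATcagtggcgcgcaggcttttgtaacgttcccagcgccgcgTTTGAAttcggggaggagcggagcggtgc
CDC20: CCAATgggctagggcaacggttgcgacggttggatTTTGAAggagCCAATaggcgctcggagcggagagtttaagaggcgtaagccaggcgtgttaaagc
All 4 hold a CCAAT upstream of a TTTGAA or TTTAAA. The median log2 fold change of the 36 genes with TTTGAA or TTTAAA was -0.61 at day 4, -0.75 with sh65 in MOLM13, -0.53 with sh64 and -0.45 with sh65 in MV4;11 and -0.09 at day 12, beside -0.64, -0.73, -0.45, -0.39 and -0.10 for the 4 without. For the 29 genes with CCAAT in the same window the medians were -0.61, -0.74, -0.52, -0.41 and -0.10 in the same order, beside -0.62, -0.78, -0.54, -0.60 and -0.07 for the 11 without. Genes with the letters were thus lower in some comparisons and higher in others, a description over few genes.

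Splicing of the set changed at few places, but 2 short exons changed by a large share. An event was called at p of 0.01 or less with a PSI difference over 10 percentage points, and events were counted by the local junction cluster they belong to. With sh64 in MOLM13 2 of 109 clusters of the set were called at day 4 (3.69% of all clusters were; with the block 4 of 108, against 3.51%) and 6 of 122 at day 12 (4.78%), with sh65 in MOLM13 2 of 116 (2.99%), and in MV4;11 4 of 108 with sh64 (3.69%) and 0 of 109 with sh65 (2.21%; 0 of the set by adjusted p, limma). The shares of the set, at 1.83% and 4.92%, 1.72%, and 3.70% and 0%, were near or under the background. PRC1, the gene with the clearest change of level, had 20 events and none called in these 5 comparisons. The read depth behind each PSI is unknown, so no interval from counts can be given.

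The first exon is in INCENP, the passenger complex scaffold, whose level was not called in any knockdown comparison. It is 12 bases long (exon 11 of the MANE transcript, coding, present in 1 of 3 annotated coding transcripts; chr11:61908972-61908983, plus strand, GRCh37) and adds 4 codons without shifting the frame. The second is in FOXM1, 45 bases long (exon 6 of the MANE transcript, in 3 of 5 coding transcripts; chr12:2974521-2974565, minus strand, GRCh37), and adds 15 codons. Each exon is shown with the 60 intron bases on either side, 5′ to 3′ on the gene's strand, because MBNL proteins bind a GC step between pyrimidines, and such tetramers (CGCC or CGCT on the one hand, TGCC or TGCT on the other) are in capitals.
INCENP intron before (chr11:61908912-61908971): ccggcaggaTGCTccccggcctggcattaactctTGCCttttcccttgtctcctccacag
INCENP exon: tgcagcttcgtc
INCENP intron after (chr11:61908984-61909043): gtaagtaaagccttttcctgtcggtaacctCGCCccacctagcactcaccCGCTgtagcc
FOXM1 intron before (chr12:2974566-2974625): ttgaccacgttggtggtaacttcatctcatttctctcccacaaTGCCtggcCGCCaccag
FOXM1 exon: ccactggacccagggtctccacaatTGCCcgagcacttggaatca
FOXM1 intron after (chr12:2974461-2974520): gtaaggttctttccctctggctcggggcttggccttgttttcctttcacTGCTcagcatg
INCENP has 2 such tetramers before and 2 after its exon, counts reached by 17.4% and 16.7% of the windows around cassette exons of the series (10636 before and 10601 after). FOXM1 has 2 before, 1 within and 1 after, and 47.4% of windows after an exon hold at least 1. No binding was measured here.

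**Figure D5:**
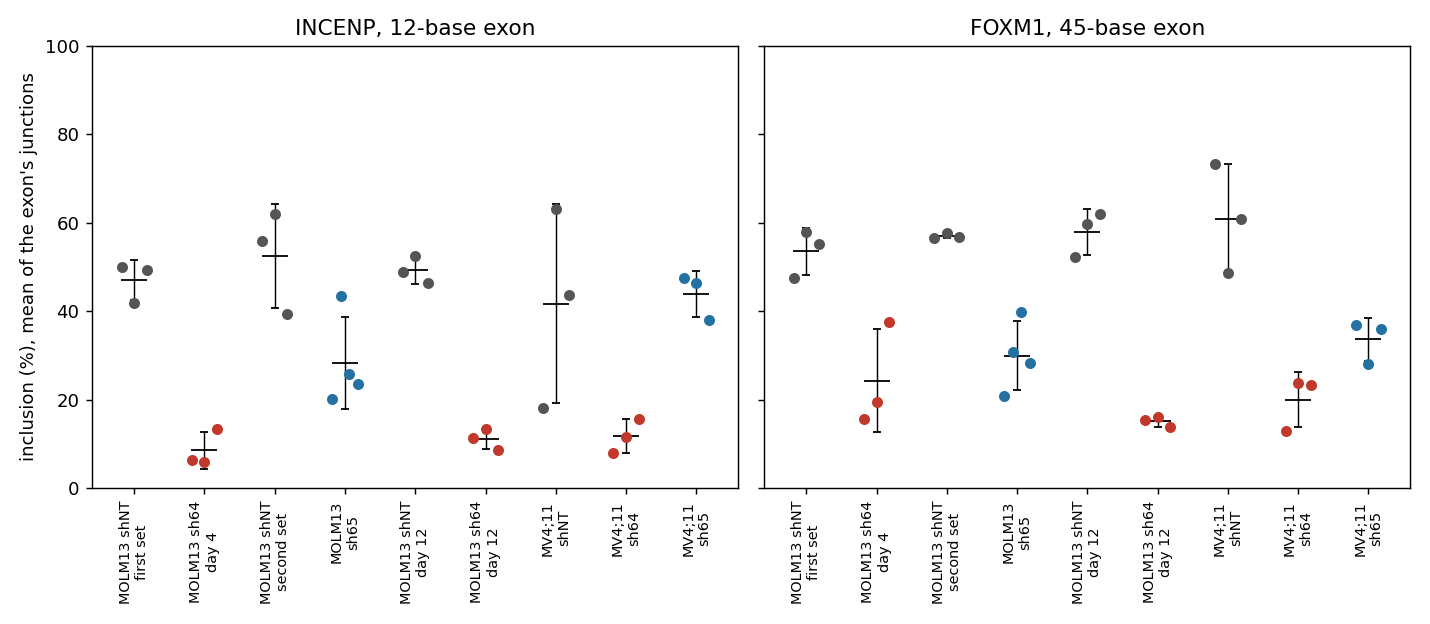
Inclusion of the INCENP 12-base exon and the FOXM1 45-base exon in every library (percent, mean of the 2 inclusion junctions) by group; horizontal bars are means and error bars are SD. The sh64 libraries lie at 5.80 to 15.6 for INCENP and at 12.9 to 37.5 for FOXM1, and INCENP with sh65 in MV4;11, at 38.0 to 47.4, lies among the controls.

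INCENP exon inclusion, as the mean of its 2 inclusion junctions, was 49.98, 41.9 and 49.3% with shNT and 6.45, 5.80 and 13.3% with sh64 at day 4. At day 12 it was 48.8, 52.5 and 46.5% with shNT and 11.2, 13.3 and 8.63% with sh64. At both days the groups were more than 20 percentage points apart. The difference for the junction into the next exon was -42.0 ± 2.96 percentage points at day 4 (adjusted p = 0.033, and 0.13 with the replicate number as a block, where the unadjusted call stayed) and -40.2 ± 2.58 at day 12 (adjusted p = 0.012). With sh65 in MOLM13 inclusion was 20.2, 43.4, 25.8 and 23.4% against 56.0, 62.1 and 39.4%. Library 2, the library with the highest level of the set, also had the highest inclusion and lay above the lowest control, and the difference was not called (-25.0 ± 8.46, adjusted p = 0.57). In MV4;11 inclusion was 18.2, 63.1 and 43.8% with shNT, 7.89, 11.5 and 15.6% with sh64 and 47.4, 46.4 and 38.0% with sh65. The controls were too spread for a call against them with sh64 (-29.9 ± 12.8, adjusted p = 0.73) or sh65 (5.27 ± 12.8), but the hairpins differed from each other (-35.2 ± 3.60, adjusted p = 0.12, past the unadjusted rule alone).

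FOXM1 exon inclusion was 47.6, 57.9 and 55.2% with shNT and 15.7, 19.5 and 37.5% with sh64 at day 4, and 52.2, 59.8 and 62.0% with shNT and 15.3, 16.2 and 13.7% with sh64 at day 12. The shallow day 4 library 3 had the highest value of its group. With sh65 in MOLM13 inclusion was 20.9, 30.7, 39.9 and 28.4% against 56.6, 57.6 and 56.8%, and in MV4;11 it was 73.3, 48.6 and 60.8% with shNT, 12.9, 23.8 and 23.3% with sh64 and 36.8, 28.1 and 36.0% with sh65. By this mean of the 2 inclusion junctions, no knockdown library overlapped its controls in any of the 5 comparisons. For the junction into the exon alone, sh64 library 3 at day 4 lay above shNT library 1. For the junction into the next exon the difference was -33.6 ± 3.54 percentage points at day 4 (adjusted p = 0.077), -30.7 ± 4.84 with sh64 in MV4;11 (adjusted p = 0.18) and -38.2 ± 3.52 at day 12 (adjusted p = 0.032). For the junction into the exon the difference with sh65 in MOLM13 was -24.0 ± 4.21 (adjusted p = 0.25). The 5 comparisons thus shared the direction, and 4 of them passed the call at the junction given, while sh65 in MV4;11 did not at either junction (-37.2 ± 12.3, adjusted p = 0.81, into the exon, and -17.4 ± 4.24, adjusted p = 0.58, into the next exon).

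The other called events of the knockdown comparisons were in CENPE, KIF23, ECT2, CDC25C, ANLN and ESPL1, and with the block at day 4 also in KIF2C. With the block 2 clusters were called with sh65 in MV4;11, in FOXM1 and MKI67, and 0 by adjusted p (limma). Skipping of exon 17 of CENPE, a kinetochore motor, was 21.0, 19.0 and 13.8% with sh64 and 42.6, 48 and 55.3% with shNT at day 12 (-30.7 ± 4.04 percentage points, adjusted p = 0.073). This exon of 75 bases (chr4:104084636-104084710, minus strand, GRCh37) was included more with sh64, the opposite direction to INCENP and FOXM1. The 60 bases before it held 4 of the tetramers, a count reached by 1.51% of such windows, and are shown for that reason.
CENPE intron before (chr4:104084711-104084770): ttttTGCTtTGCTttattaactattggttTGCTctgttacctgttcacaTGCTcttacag
Neither the exon nor the 60 bases after it held any. In KIF23, a midzone kinesin, skipping of a 42-base exon (chr15:69717621-69717662, plus strand) was 81.8, 85.7 and 85.0% with sh64 and 62.6, 67.0 and 52.4% with shNT at day 12 (23.5 ± 4.27, adjusted p = 0.14). The groups did not overlap in either gene. With the block at day 4 an inclusion junction of a KIF2C exon was at 76.0, 83.7 and 77.5% with shNT and 85.3, 93.8 and 91.7% with sh64 (11.2 ± 1.36, adjusted p = 0.33). One of CDC25C was at 81.4 and 71.4% against 92.7 and 83.3% in the first pairs (11.6 ± 0.29, adjusted p = 0.27). There sh64 library 3 had no PSI, and shNT library 3, at 100%, lay above both measured sh64 libraries. Neither was called without the block. Also called, each without passing the adjustment, were events of ECT2 with sh65 in MOLM13 (-22.5 ± 3.38), of ECT2 (-11.1 ± 2.59) and CDC25C (-16.0 ± 3.07) at day 12, and of ANLN with sh64 in MV4;11 (10.8 ± 2.20). For CENPE (an alternative 3′ site, 37.9 ± 1.96) and ESPL1 (an alternative 5′ site, -18.0 ± 2.86) in MV4;11 with sh64 the fit rested on 2 measured libraries in 1 or both groups, since the others had no PSI. Between the control lines, inclusion of the KIF23 exon was 17.2, 9.52 and 10.0% in MV4;11 and 29.0, 32.6 and 28.2% in MOLM13 (-17.7 ± 2.71), and inclusion of a KIF2C exon was 66.7, 62.3 and 70.8% against 76.8, 80.6 and 78.7% (-12.1 ± 2.57), 2 of 112 clusters called (3.04% of all clusters). Neither passed the adjustment, and the lines did not overlap in either exon.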

How the data were processed

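Total RNA of MOLM13 and MV4;11 cells was sequenced by the authors, aligned with STAR to GRCh37/hg19, and turned into gene RPKM and splice-junction PSI with AltAnalyze. The deposited RPKM values are scaled to transcript length and library size, and the deposited PSI values are a fraction between 0 and 1, printed here as percent. Columns holding the authors' own splicing differences (dPSI) were not used. Read counts are unknown in both tables, so no counting interval is given, and depth is relative.

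From these, log2(RPKM + 1) was fitted with limma 3.58.1 in R 4.3.3, keeping genes with a mean of at least 1 RPKM in either group, for 10 comparisons. A call needed p of at most 0.01 and 1.5-fold, and adjusted p is Benjamini-Hochberg over all genes tested. PSI was fitted with limma for events with a value in over 50% of either group's libraries (both groups required), with a difference over 10 percentage points. Tests are two-sided, and the fits were checked on simulated data. Errors are SE for fold changes and PSI differences. Same-numbered day 4 libraries pair by their correlations (above 0.1 in all 3 pairs), a hint from the data, as the labels name no shared batch. Libraries 1 and 2 also correlated across numbers (0.75 and 0.67), so the hint is weak for them.

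Genes described in every library were the called genes with the 4 largest falls and rises of each comparison, or the 3 of smallest p where none was called, and CDK1, CCNB1, PLK1, AURKA, TOP2A, MKI67, FOXM1, BUB1 and MAD2L1. Every gene of the set with a called splicing cluster in a knockdown comparison is named, and at most 3 genes of each other list per comparison. Genes of the set and of all lists were chosen with earlier results of these data known. Other pseudocounts, filters, scalings, library sets, the replicate block and leaving out each library were tried.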

Additional observations from a re-analysis of the deposited data

Results flagged for a closer look

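In the 4 sh65 libraries of MOLM13, 63 values of the set (gene levels and exon inclusion) were examined for 1 library far from the other 3, and 8 stood apart. Chance gives about 1 in 20 for a single value. The 63 values come from the same 4 libraries and are not independent, so the count of 8 cannot be judged by that rate. Library 2 was the high one for CCNA2 (30.9 RPKM), AURKA (20.6), BUB1B (21.7), ESPL1 (4.84), KIF2C (37.2) and KIF4A (12.3), and also for the INCENP junction into exon 12 (47.4%). Library 3 was the high one for an ANLN 5′ site (91.4%). Without library 2, 38 genes of the set were called lower in place of 30. The share of all genes called without library 2 is not given.

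With the replicate number as a block, the response to sh64 in MOLM13 passed the 1.5-fold rule or an adjusted p of 0.05 between day 12 and day 4 for 10 genes. All had the less negative or more positive value at day 12. Of all genes 0.803% were called higher and 0.737% lower, and by adjusted p 1.29% were higher and 0.917% lower. The log2 differences were 0.59 for CDK1, 0.64 for CCNA2, 0.56 for BUB1, 0.61 for BUB1B, 0.75 for MAD2L1, 0.55 for TTK, 0.78 for CDC20, 0.51 for NUF2, 0.69 for HMMR and 0.66 for TOP2A. Without the block none of these was called, and the numbers did not pair the day 12 libraries. Day, experiment and sequencer cannot be told apart.

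Between sh64 and sh65 in MV4;11 the levels of BIRC5 (0.57), PBK (0.32), CDC20 (0.20), PTTG1 (-0.24), KIF20B (-0.28), KIF23 (-0.25) and PRC1 (-0.35) differed on the log2 scale by adjusted p. In the same comparison the INCENP junction differed by -35.2 percentage points, a CDC25C exon by 15.5 and a CDC25B first exon by -17.3, without passing the adjustment. Between the hairpins in MOLM13 a KIF20B 3′ site differed by 13.5 and a KIF2C exon by 14.2 percentage points. For the response to sh64 in MV4;11 against MOLM13 an ESPL1 5′ site differed by -26.9 and the other KIF20B 3′ site by 24.1 percentage points, again at unadjusted p alone.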

How the results depend on the processing

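No result of the set that was called without the replicate block turned its direction under the alternatives run. The difference of day 12 against day 4, called only with the block, is not covered by this. Its median changed sign when 1 of the day 4 sh64 libraries was left out. Among single genes and events named in the text, 644 of their values under other settings stayed on the same side of the threshold and 226 lost the call, and with 1 library left out these were 553 and 259. The 28-library fit shares 1 spread over all groups, including the day 4 libraries, and gave 1 gene called lower at day 4 in place of 0. It gave fewer elsewhere: 2 with sh65 in MOLM13, 0 with sh64 and 0 with sh65 in MV4;11, 0 at day 12 and 26 between the lines. Testing genes without the filter on low values gave 6 with sh65 in MOLM13, 6 with sh64 and 7 with sh65 in MV4;11. Median-ratio scaling and a pseudocount of 0.1 each gave 1 gene higher with sh64 than sh65 in MV4;11, and neither moved another count of genes by over 1.5 times. Against the first MOLM13 shNT set MV4;11 had 6 genes lower with a median of -0.76. These counts of genes are given without the share of all genes.

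The replicate block gave 22 genes lower at day 4 and 7 higher for day 12 against day 4. Leaving out both day 4 libraries numbered 3 gave 9, or 10 with the block. Numbers did not pair the libraries in MV4;11 (correlations of -0.06, 0.04 and -0.08 for sh64 and -0.66, 0.06 and -0.57 for sh65) or at day 12 (-0.11, -0.05 and -0.06). There the block gave 17 and 13 genes lower in MV4;11 (2.67% and 1.77% of all genes) and 1 at day 12 (2.28%), and by adjusted p 12 with sh64 (2.27%) and 0 with sh65 (0.0392%) in MV4;11, and 15 lower (17.5%) and 1 higher (27.9%) at day 12. No paired analysis was possible because the second MOLM13 shNT columns carry no numbers, for sh65 in MOLM13 and for the comparisons that use that set.

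Counts of splicing clusters were small and moved with most settings. With all 28 libraries they were 4 at day 4, 5 with sh65 in MOLM13, 7 with sh64 and 3 with sh65 in MV4;11, 3 at day 12, 7 between the hairpins in MV4;11 and 1 in MOLM13. With the block they were 4 at day 4, 1 with sh64 and 2 with sh65 in MV4;11, 3 at day 12 and 1 between the hairpins in MV4;11. A difference over 20 percentage points left 2 with sh64 in MV4;11, 1 between the hairpins in MV4;11, 0 in MOLM13 and 0 between the control lines. The logit scale gave 7 with sh64 in MV4;11, 4 for sh64 in MV4;11 against MOLM13 and 1 between the hairpins in MOLM13, and events measured in every library gave 2, 0 and 1. Without the day 4 libraries numbered 3 the counts were 1 for day 12 against day 4, 4 for sh64 in MV4;11 against MOLM13 (1 with the block) and 1 between the hairpins in MOLM13. Except where the alternative itself removes libraries or events, the cause was not tested.

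Leaving out 1 library at a time, genes lower ranged from 0 to 1 at day 4, 6 to 38 with sh65 in MOLM13, 6 to 31 with sh64 and 7 to 22 with sh65 in MV4;11, and genes higher with sh64 than sh65 in MV4;11 from 0 to 1. Shares of all genes are not given beside these ranges, so a change in calls over all genes cannot be told apart. The median with sh64 in MV4;11 ranged from -0.66 to -0.41 and that of day 12 against day 4 from -0.21 to 0.96. Splicing clusters ranged from 2 to 5 at day 4, 1 to 5 with sh64 and 0 to 3 with sh65 in MV4;11, 1 to 5 and 0 to 3 between the hairpins in MV4;11 and MOLM13, 0 to 2 for day 12 against day 4, 0 to 4 for sh64 in MV4;11 against MOLM13 and 1 to 4 between the control lines. The unknown read depth limits low genes such as KIF18A and MKI67 and every PSI.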
